A study of Mus musculus with 6 samples.

Results

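The subunits of respiratory chain complexes I to IV were examined in joint tissue of the tibial plateau, articular cartilage together with the bone beneath it, from Frzb-/- and wild-type mice. The members were 48 nuclear genes listed by complex, and each was measured by the brightest of its probe sets, the one with the highest mean over all 6 arrays. Of these, 46 were found among the 13817 genes with a probe set of their own. They comprised 26 subunits of complex I, 4 of complex II, 7 of complex III and 9 of complex IV. Ndufs6 shared its probe set with Ndufs6b and Cox7b was not matched, so both stayed out of all counts of expression. The promoter search used every listed member with a promoter window, Ndufs6 among them.

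Male mice aged 6 weeks on the C57Bl/6J background were used, and each array held RNA from a single joint of 1 mouse. The Frzb-/- group consisted of mice 14 and 17, which lack frizzled-related protein, a secreted WNT antagonist. The wild-type group consisted of mice 6-1, 8-1 and 9-1. Mouse 6 was also labelled Frzb-/- and is shown apart, because the study set aside a labelled animal that proved heterozygous on re-genotyping. The dissected piece included cartilage, trabecular bone with marrow and part of the growth plate, so fewer cells of a type and less RNA per cell cannot be told apart.

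The respiratory chain sits in the inner mitochondrial membrane. Complex I takes electrons from NADH and complex II from succinate, both pass them through ubiquinone to complex III, and cytochrome c carries them to complex IV, where oxygen is reduced. Complexes I, III and IV pump protons, and ATP synthase uses the gradient. Most subunits are encoded in the nucleus and a few in mitochondrial DNA, whereas complex II is wholly nuclear. Articular chondrocytes live without blood vessels and rely largely on glycolysis, whereas skeletal muscle, heart and brown fat are rich in respiratory chain.

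Nuclear subunit genes are known to be driven by shared factors, among them NRF1, the ETS factor GABP and YY1, so the promoters were searched for short motifs of each. RefSeq promoter windows of the GRCm38.p6 build, from 250 bases before to 50 bases after the start of the gene, were available for 38 of the 48 members. Each motif was read on both strands. The NRF1 motif GCGCATG was in 7 of 38 members (18.4%), against 4.41% of all 27025 genes with a window. The ETS motif CCGGAAG was in 8 members (21.1%), against 9.93% of all genes. The YY1 motif AAGATGG was in 8 members (21.1%), against 7.28% of all genes. At least 1 of these motifs was in 20 of 38 members (52.6%), against 19.5% of all genes. These are matches of letters, and no binding was measured.

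The 150 bases before the start are shown for 1 member each of complexes I, II and IV that held the NRF1 motif, which is in capitals as it reads on the strand of the gene. Each is written 5′ to 3′. Ndufa6 lies at chr15:82354292-82354441 on the minus strand, Sdhb at chr4:140961121-140961270 on the plus strand and Cox5b at chr1:36691337-36691486 on the plus strand.
Ndufa6: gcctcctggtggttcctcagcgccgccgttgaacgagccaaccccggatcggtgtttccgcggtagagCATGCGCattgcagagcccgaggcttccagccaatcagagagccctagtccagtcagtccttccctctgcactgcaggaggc
Sdhb: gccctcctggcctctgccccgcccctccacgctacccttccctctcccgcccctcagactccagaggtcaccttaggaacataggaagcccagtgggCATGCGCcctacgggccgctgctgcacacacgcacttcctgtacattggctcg
Cox5b: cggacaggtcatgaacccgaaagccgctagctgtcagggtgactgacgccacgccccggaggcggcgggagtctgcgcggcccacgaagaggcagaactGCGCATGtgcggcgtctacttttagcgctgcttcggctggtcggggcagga

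The YY1 motif lay at similar positions in complex I. All 7 complex I members that held it had it on the strand of the gene, beginning 22 to 38 bases after the start. The other member with the motif, Cox7c of complex IV, had it on the other strand, at -2 from the start. Of all 1181 windows with the motif on the strand of the gene, 405 (34.3%) had it after the start. That share covers any position after the start, a wider span than 22 to 38 bases. The motif also contains ATG, the letters of a start codon. Whether these matches lie on the first codon of the genes was not tested. The 7 complex I genes lie on chromosomes 7 (Ndufa3), 6 (Ndufa9), 19 (Ndufb8), 3 (Ndufc1), 13 (Ndufs4 and Ndufs6) and 10 (Ndufs7). The motif is in capitals in the stretches that follow, each with 5 flanking bases on either side.
Ndufa3: agaacAAGATGGccggg
Ndufa9: gggagAAGATGGcggcc
Ndufb8: aggtgAAGATGGctgcc
Ndufc1: ggaacAAGATGGcgccg
Ndufs4: acaggAAGATGGcggcg
Ndufs6: ccggcAAGATGGcggcg
Ndufs7: aggccAAGATGGcggcg

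None of the 46 members passed the test between Frzb-/- and wild-type mice. In limma, with p-values adjusted over all 30618 probe sets and a threshold of 0.05, 0 of 46 members were lower and 0 were higher in Frzb-/- mice. Over all probe sets, 14.8% were lower and 11.7% were higher. At the stricter thresholds of the study, an adjusted p under 0.01 and a log2 fold change above 1 in size, the members again counted 0 in both directions, against 5.09% of probe sets lower and 2.34% higher. At an unadjusted p under 0.05, 1 of 46 members was counted, against 39.2% of all probe sets. Of all 91 probe sets of the members, 0 were called, and 1 had an unadjusted p under 0.05.

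The differences were also small in size. The 95% limits of the log2 fold change lay between -1 and 1 for 45 of 46 members, against 77.2% of all probe sets. The arrays of the Frzb-/- and wild-type groups did not overlap for 2 of 46 members, Cox7c and Ndufb4, against 55.6% of all probe sets. For 44 of 46 members, the range of the 3 wild-type arrays exceeded the difference between the group means, against 46.8% of all probe sets. The median log2 fold change was 0.06 over all members and 0.02 over all probe sets. With 2 arrays against 3, smaller differences may go undetected.

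**Figure D1:**
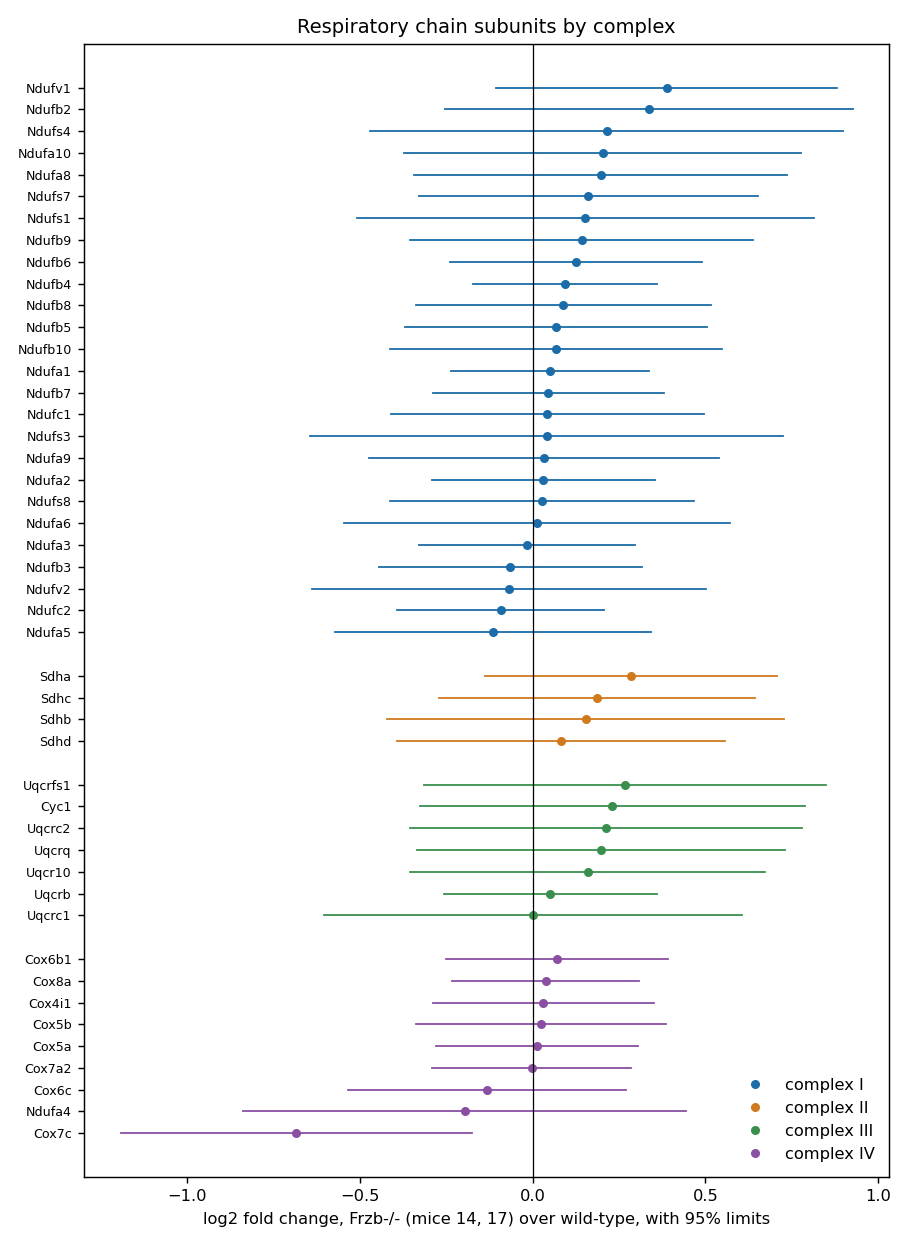
Log2 fold change of each of the 46 members between Frzb-/- mice (14 and 17) and wild-type mice, on the horizontal axis, with bars for the 95% limits from limma, grouped by complex and sorted within it. Cox7c at the bottom has limits that lie wholly below 0, and the limits of the other 45 members include 0.

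Complex I, the NADH dehydrogenase, had a median log2 fold change of 0.06 over its 26 members, with a range of -0.12 to 0.39. It was positive for 21 members and negative for 5. Ndufv1 carries the flavin site at which NADH is oxidised and had the highest value. Its level on the log2 scale was 11.72 and 11.90 in Frzb-/- mice and 11.05 in mouse 6, against 11.78, 11.40 and 11.08 in wild-type mice. The groups overlapped, and the log2 fold change was 0.39 ± 0.21 (SE; adjusted p = 0.216, limma). Its partner in that module, Ndufv2, had 12.00 and 12.45 in Frzb-/- mice and 11.82 in mouse 6, against 12.69, 12.23 and 11.95 in wild-type mice. Both Frzb-/- values lay inside the wild-type range, with a log2 fold change of -0.07 ± 0.24 (SE; adjusted p = 0.856). The other core subunits, which hold the iron-sulfur clusters or the ubiquinone site, had log2 fold changes of 0.15 for Ndufs1, 0.04 for Ndufs3, 0.16 for Ndufs7 and 0.03 for Ndufs8.

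The accessory subunits of complex I surround this core. Ndufb2, in the membrane arm, had 11.24 and 11.55 in Frzb-/- mice and 10.72 in mouse 6, against 11.50, 11.05 and 10.64 in wild-type mice. Mouse 17 was highest and wild-type mouse 9-1 lowest, and the log2 fold change was 0.34 ± 0.25 (SE; adjusted p = 0.363). Ndufs4, whose loss in mice causes a Leigh-like encephalopathy, had 9.84 and 10.35 in Frzb-/- mice and 9.50 in mouse 6, against 10.37, 9.86 and 9.41 in wild-type mice. Both Frzb-/- values again lay inside the wild-type range, with a log2 fold change of 0.21 ± 0.29 (SE; adjusted p = 0.622). Ndufa10 had 11.45 and 11.95 in Frzb-/- mice and 11.10 in mouse 6, against 11.90, 11.40 and 11.20 in wild-type mice. Its log2 fold change was 0.20 ± 0.24 (SE; adjusted p = 0.576).

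At the low end of complex I stood Ndufa5, an accessory subunit of the peripheral arm, with 11.15 and 11.43 in Frzb-/- mice and 10.75 in mouse 6, against 11.73, 11.33 and 11.16 in wild-type mice. The groups overlapped at mouse 17, and the log2 fold change was -0.12 ± 0.19 (SE; adjusted p = 0.694). Ndufc2 varied little, with 12.27 and 12.36 in Frzb-/- mice and 12.20 in mouse 6, against 12.54, 12.37 and 12.31 in wild-type mice. Its log2 fold change was -0.09 ± 0.13 (SE; adjusted p = 0.623). Ndufb3, in the membrane arm, had 10.25 and 10.56 in Frzb-/- mice and 10.01 in mouse 6, against 10.68, 10.37 and 10.36 in wild-type mice. Its log2 fold change was -0.07 ± 0.16 (SE; adjusted p = 0.793).

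A pair of complex I genes need a separate word. Ndufb4 did not overlap between the groups, but its probe set was dim, at the 6.32 percentile of all probe sets. It read 4.04 and 4.08 in Frzb-/- mice and 3.89 in mouse 6, against 4.01, 3.92 and 3.97 in wild-type mice, with a log2 fold change of 0.09 and an adjusted p of 0.581. The probe set shared by Ndufs6 and Ndufs6b read 10.76 and 11.12 in Frzb-/- mice and 10.51 in mouse 6, against 11.25, 10.83 and 10.71 in wild-type mice. It could not be assigned to either gene, and its log2 fold change was 0.01.

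Complex II, the succinate dehydrogenase, links the chain to the citric acid cycle. All 4 of its genes had a positive log2 fold change, with a median of 0.17, and none passed the test. Sdha, the flavoprotein that oxidises succinate, had 11.76 and 12.05 in Frzb-/- mice and 11.32 in mouse 6, against 11.90, 11.55 and 11.42 in wild-type mice. The groups overlapped at mouse 14, and the log2 fold change was 0.29 ± 0.18 (SE; adjusted p = 0.283). Sdhb, the iron-sulfur subunit whose promoter is printed above, had 11.78 and 12.24 in Frzb-/- mice and 11.22 in mouse 6, against 12.26, 11.79 and 11.52 in wild-type mice. Both Frzb-/- values were inside the wild-type range (log2 fold change 0.15 ± 0.24, SE; adjusted p = 0.675).

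The membrane anchors of complex II were not called either. Sdhc had 11.01 and 11.42 in Frzb-/- mice and 10.48 in mouse 6, against 11.28, 11.02 and 10.78 in wild-type mice (log2 fold change 0.19 ± 0.19, SE; adjusted p = 0.517). Sdhd had 10.82 and 11.17 in Frzb-/- mice and 10.48 in mouse 6, against 11.24, 10.82 and 10.68 in wild-type mice (log2 fold change 0.08 ± 0.20, SE; adjusted p = 0.791). Mouse 6 was the lowest array for all 4 genes.

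Complex III, the cytochrome bc1 complex, had the highest median log2 fold change, 0.20 over 7 members, all positive and none past the threshold. Uqcrfs1, the Rieske iron-sulfur protein, had 11.36 and 11.82 in Frzb-/- mice and 10.77 in mouse 6, against 11.73, 11.25 and 10.98 in wild-type mice. Mouse 17 was the highest array, while mouse 14 lay among the wild-type mice (log2 fold change 0.27 ± 0.25, SE; adjusted p = 0.462). Cyc1, cytochrome c1, had 11.79 and 12.16 in Frzb-/- mice and 11.21 in mouse 6, against 12.14, 11.72 and 11.38 in wild-type mice (log2 fold change 0.23 ± 0.24, SE; adjusted p = 0.509). The small subunit Uqcrb had 13.95 and 14.02 in Frzb-/- mice and 13.67 in mouse 6, against 14.08, 13.90 and 13.81 in wild-type mice (log2 fold change 0.05 ± 0.13, SE; adjusted p = 0.801). Uqcrc1, a core protein, had 11.54 and 12.16 in Frzb-/- mice and 11.26 in mouse 6, against 12.24, 11.76 and 11.56 in wild-type mice. Its group means were nearly identical (log2 fold change 0.00 ± 0.25, SE; adjusted p = 0.998), with a wide spread inside each group.

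Complex IV, the cytochrome c oxidase, had a median log2 fold change of 0.01 over 9 members, 5 positive and 4 negative. Cox6b1, which faces the intermembrane space, had 13.32 and 13.42 in Frzb-/- mice and 13.01 in mouse 6, against 13.47, 13.27 and 13.16 in wild-type mice (log2 fold change 0.07 ± 0.14, SE; adjusted p = 0.737). Cox8a, a small membrane subunit, had 10.67 and 10.60 in Frzb-/- mice and 10.70 in mouse 6, against 10.62, 10.63 and 10.54 in wild-type mice (log2 fold change 0.04 ± 0.11, SE; adjusted p = 0.834). Mouse 6 was the highest array for 2 of 46 members, Cox8a and Cox7c. Ndufa4, once counted in complex I and now placed in complex IV, had 11.30 and 11.63 in Frzb-/- mice and 11.30 in mouse 6, against 12.15, 11.62 and 11.21 in wild-type mice. The wild-type arrays alone spanned 0.95 (log2 fold change -0.20 ± 0.27, SE; adjusted p = 0.626).

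Cox7c, a small subunit of complex IV, came closest to the threshold. Its probe set read 6.27 and 5.64 in Frzb-/- mice and 6.92 in mouse 6, against 6.87, 6.50 and 6.55 in wild-type mice. Both Frzb-/- arrays were below every wild-type array, and the log2 fold change was -0.68 ± 0.21 (SE; adjusted p = 0.0557, limma). The value depended on the Frzb-/- mouse, with a log2 fold change of -0.37 without mouse 17 (adjusted p = 0.265) and -1.0 without mouse 14 (adjusted p = 0.0224). Each of these fits had 1 Frzb-/- array, which was assumed to vary like the wild-type arrays. This probe set was at the 33.7 percentile of all probe sets, and the gene's other probe set was dimmer still, with a log2 fold change of -0.27 and an adjusted p of 0.199.

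The subunits differed more between mice than between genotypes, and they did so together. The highest array was wild-type mouse 6-1 for 30 of 46 members, against 10.6% of all probe sets. The lowest was mouse 6 for 37 of 46, against 16.2%. Mouse 6 was below the wild-type mean for 44 of 46, against 42.9%. The highest array in mouse 6-1 together with the lowest in mouse 6 held for 24 of 46 members, against 3.65%. Within the Frzb-/- group, mouse 17 exceeded mouse 14 for 43 of 46 members, against 45.0%. Within the wild-type group, 42 of 46 members had mouse 6-1 above 8-1 and 8-1 above 9-1, against 22.4%. These counts describe genes measured on the same arrays, which are not independent, and carry no test.

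The complexes shared this pattern to different degrees. For complex I, the median deviation from the wild-type mean was -0.08 in mouse 14, 0.24 in mouse 17 and -0.45 in mouse 6, against 0.32, -0.06 and -0.25 in wild-type mice 6-1, 8-1 and 9-1. Complex II had -0.05, 0.39 and -0.49 in mice 14, 17 and 6, against 0.30, -0.07 and -0.24 in the wild-type mice. Complex III had 0.02, 0.35 and -0.53, against 0.39, -0.05 and -0.31. These 3 profiles were alike, with mice 17 and 6-1 high and mouse 6 low.

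By its median complex IV moved less, with -0.10, 0.02 and -0.24 in mice 14, 17 and 6, against 0.17, -0.03 and -0.13 in the wild-type mice. The median range of a gene over the 6 arrays was 0.50 for complex IV, against 0.86 for complex I, 0.85 for complex II and 0.95 for complex III. Single genes of complex IV differed, with a range from 0.16 for Cox8a to 1.29 for Cox7c, the widest of all members. In mouse 17, the median deviation of complex III exceeded that of complex IV by 0.34. The probe sets of complex IV were also brighter, with a median level of 13.05 on the log2 scale, against 11.54, 11.33 and 11.62 for complexes I, II and III. The part of brightness in the narrower median range was not tested.

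**Figure D2:**
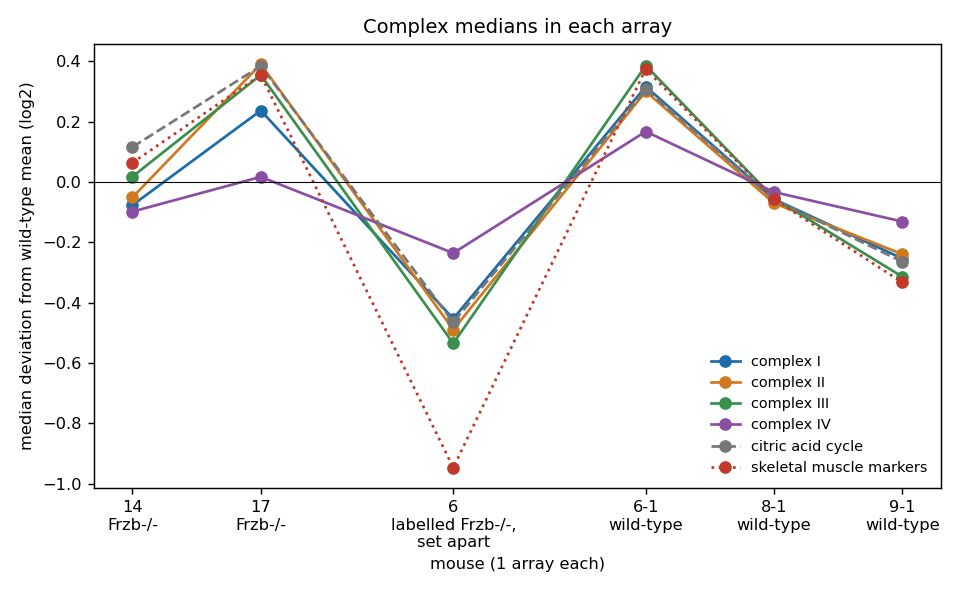
Median deviation from the wild-type mean (log2) of the members of each complex, of citric acid cycle genes and of skeletal muscle markers, on the vertical axis, for each of the 6 mice on the horizontal axis. Lines only join the points of a list, and they show mice 17 and 6-1 high, mouse 6 low and complex IV with the flattest course.

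Markers of skeletal muscle moved across the arrays with the subunits. All 13 markers were measured, none was near the floor (the dimmest was at the 98.6 percentile), and 0 of 13 were called between the groups, with a median log2 fold change of 0.19. Their mean level was 13.69 and 14.10 in Frzb-/- mice and 12.82 in mouse 6, against 14.10, 13.68 and 13.43 in wild-type mice. Mouse 6 was lowest for 12 of 13 markers and mouse 6-1 highest for 7 of 13. The median of the markers was also put in the fit as a covariate, a setting chosen after seeing the data. It leaves few degrees of freedom. The median log2 fold change of the members was then -0.11, against -0.003 over all probe sets, and 40 of 46 were negative. In that fit 1 of 46 members, Ndufa4, was lower and 0 were higher, against 11.7% of all probe sets lower and 9.42% higher. The part of the muscle markers in the result was not tested.

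Complex IV has isoforms of some subunits that are found in striated muscle, some of them also in brown fat, and these were set beside the widely expressed ones. Cox6a2, the muscle form of Cox6a1, had 11.59 and 12.31 in Frzb-/- mice and 10.20 in mouse 6, against 12.30, 11.48 and 11.04 in wild-type mice. Cox6a1 had 13.70 and 13.52 in Frzb-/- mice and 13.73 in mouse 6, against 13.63, 13.70 and 13.80 in wild-type mice. The muscle form thus spanned 2.11 over the 6 arrays and the widely expressed form 0.28.

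The other pairs differed likewise. Cox7a1, the muscle form of Cox7a2, had 10.87 and 11.84 in Frzb-/- mice and 9.57 in mouse 6, against 11.95, 11.14 and 10.37 in wild-type mice, a span of 2.38. Cox7a2 had 13.05 and 13.09 in Frzb-/- mice and 12.97 in mouse 6, against 13.19, 13.03 and 12.99 in wild-type mice, a span of 0.22. Cox8b, the muscle form of Cox8a, had 11.68 and 12.16 in Frzb-/- mice and 10.14 in mouse 6, against 12.26, 11.49 and 10.71 in wild-type mice, a span of 2.12. Each muscle form was lowest in mouse 6 and overlapped between the groups, with log2 fold changes of 0.34 for Cox6a2, 0.20 for Cox7a1 and 0.44 for Cox8b (adjusted p = 0.542, 0.783 and 0.476, limma). By mean level over the 6 arrays, Cox6a1 and Cox7a2 were brighter than their muscle forms, and Cox8a was dimmer than Cox8b. The part of brightness in these spans was not tested.

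**Figure D3:**
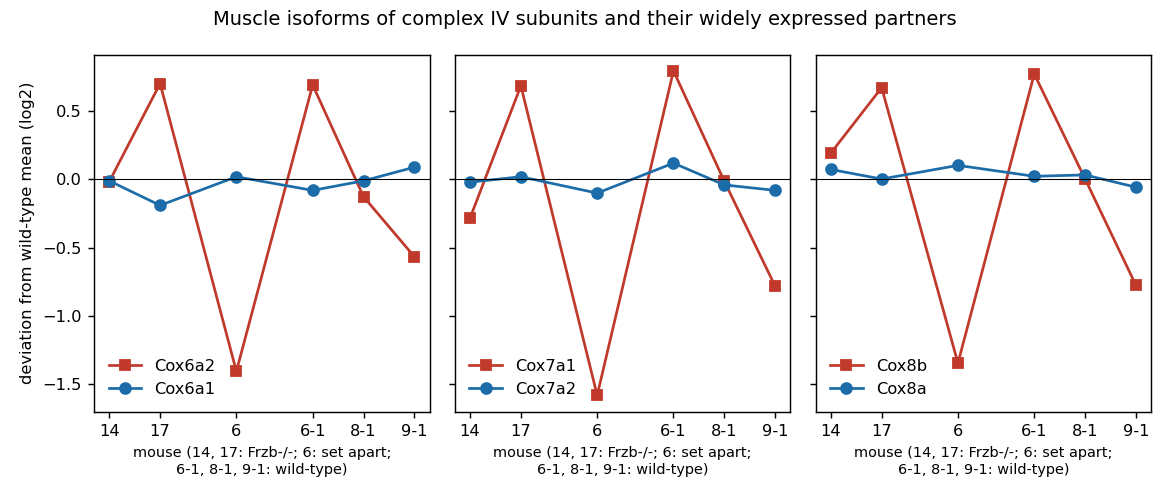
Deviation from the wild-type mean (log2) on the vertical axis for 3 muscle isoforms of complex IV subunits (squares) and their widely expressed partners (circles), for each of the 6 mice on the horizontal axis. Lines only join the points of a gene, and the muscle forms span 2.11 to 2.38 while their partners stay within 0.28.

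Of all 7 tissue-restricted isoforms measured, these 3 muscle forms included, 1 was lower and 1 was higher. These counts were near the shares over all probe sets, 14.8% lower and 11.7% higher. Cox6b2, the form of Cox6b1 best known from testis, fell to 7.02 and 6.93 in Frzb-/- mice, with 9.05 in mouse 6, against 8.58, 8.55 and 8.82 in wild-type mice. The groups were widely separated, and mouse 6 stood with wild-type (log2 fold change -1.68 ± 0.13, SE; adjusted p = 0.0010). Ndufa4l2, a hypoxia-inducible relative of Ndufa4, rose to 10.31 and 10.24 in Frzb-/- mice, with 9.77 in mouse 6, against 8.94, 9.30 and 9.00 in wild-type mice (log2 fold change 1.195 ± 0.15, SE; adjusted p = 0.0023). Both calls held when any 1 of the 5 arrays was left out.

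Of the other nuclear subunits of complexes I, III and IV, 0 of 12 were called, with a median log2 fold change of 0.06, 7 of them positive. Of the 13 mitochondrially encoded genes, 1 was matched, the complex I subunit gene mt-Nd5. It rose to 14.03 and 14.03 in Frzb-/- mice, with 13.47 in mouse 6, against 13.58, 13.35 and 13.01 in wild-type mice (log2 fold change 0.71 ± 0.18, SE; adjusted p = 0.0264). The call was lost without mouse 14 (adjusted p = 0.0895), mouse 17 (0.109) or mouse 8-1 (0.0785), with log2 fold changes of 0.71 to 0.73 in these fits. It was also lost with the median of the muscle markers as a covariate (log2 fold change 0.55, adjusted p = 0.0527).

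Downstream of the chain, ATP synthase had 1 of 16 genes lower, against 14.8% of all probe sets, and 0 higher. Its median log2 fold change was 0.08. The lower gene was Atp5if1, the inhibitor that blocks the reverse action of the enzyme, and not a catalytic subunit. It fell to 10.45 and 10.36 in Frzb-/- mice, with 11.60 in mouse 6, against 11.35, 11.27 and 11.59 in wild-type mice (log2 fold change -1.0 ± 0.14, SE; adjusted p = 0.0034), and the call held when any 1 array was left out. The brightest ATP synthase genes, Atp5mc3 and Atp5f1b, had log2 fold changes of 0.08 and 0.07.

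Genes that feed the chain were also not called. The citric acid cycle list also held Pdha1 and Pdhb of pyruvate dehydrogenase. It had 0 of 14 genes called and a median of 0.22, with 0.42 for malate dehydrogenase Mdh2 and 0.21 for citrate synthase Cs. Its median deviation was 0.12, 0.38 and -0.47 in mice 14, 17 and 6, against 0.31, -0.06 and -0.26 in wild-type mice 6-1, 8-1 and 9-1. The electron carriers and enzymes that supply ubiquinone had 0 of 12 called and a median of 0.12, with 0.01 for cytochrome c (Cycs) and 0.30 for Etfa. Assembly factors of complex I had 0 of 13 called, and those of complexes II and III had 0 of 9. Of 17 assembly factors of complex IV, 1 was lower, against 14.8% of all probe sets. It was the copper chaperone Cox17 (log2 fold change -0.44, adjusted p = 0.043), and this call was lost whenever 1 array was left out.

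Among regulators of mitochondrial biogenesis, 4 of 14 were lower and 0 higher in Frzb-/- mice, where 14.8% of all probe sets were lower and 26.5% were called in either direction. The list went both ways, with 6 positive log2 fold changes and a median of -0.13, and its difference from the subunits was not tested. Yy1, the transcription factor whose motif is printed above, fell to 10.03 and 10.05 in Frzb-/- mice, with 10.90 in mouse 6, against 10.63, 10.78 and 10.64 in wild-type mice (log2 fold change -0.65 ± 0.12, SE; adjusted p = 0.0088). Tfb1m, which methylates mitochondrial ribosomal RNA, fell to 7.58 and 7.82 in Frzb-/- mice, with 8.32 in mouse 6, against 8.47, 8.25 and 8.26 in wild-type mice (log2 fold change -0.63 ± 0.14, SE; adjusted p = 0.018). The groups did not overlap for either gene.

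The other called regulators were named after their values were seen. Nrf1 fell to 7.36 and 7.29 in Frzb-/- mice, with 8.10 in mouse 6, against 7.81, 7.89 and 8.09 in wild-type mice (log2 fold change -0.61 ± 0.13, SE; adjusted p = 0.017). Gabpb1, the partner subunit of the GABP factor, fell to 7.60 and 7.30 in Frzb-/- mice, with 8.23 in mouse 6, against 7.94, 8.15 and 8.10 in wild-type mice (log2 fold change -0.62 ± 0.14, SE; adjusted p = 0.021). Gabpa, the other subunit of that factor, was not called and had 9.36 and 9.18 in Frzb-/- mice and 9.24 in mouse 6. The wild-type mice had 8.99, 9.24 and 9.18, so the groups overlapped (log2 fold change 0.14 ± 0.14, SE; adjusted p = 0.488, limma). The Yy1 call held when any 1 array was left out. The others were less firm, since Nrf1 was lost without mouse 17 or 8-1, Gabpb1 without mouse 17, 8-1 or 9-1, and Tfb1m without mouse 14 or 8-1. Protein import and channels had 2 of 12 genes lower, against 14.8% of all probe sets. These were Hspd1 and Tomm22 (log2 fold changes -0.45 and -0.38), and both calls were lost whenever 1 array was left out.

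**Figure D4:**
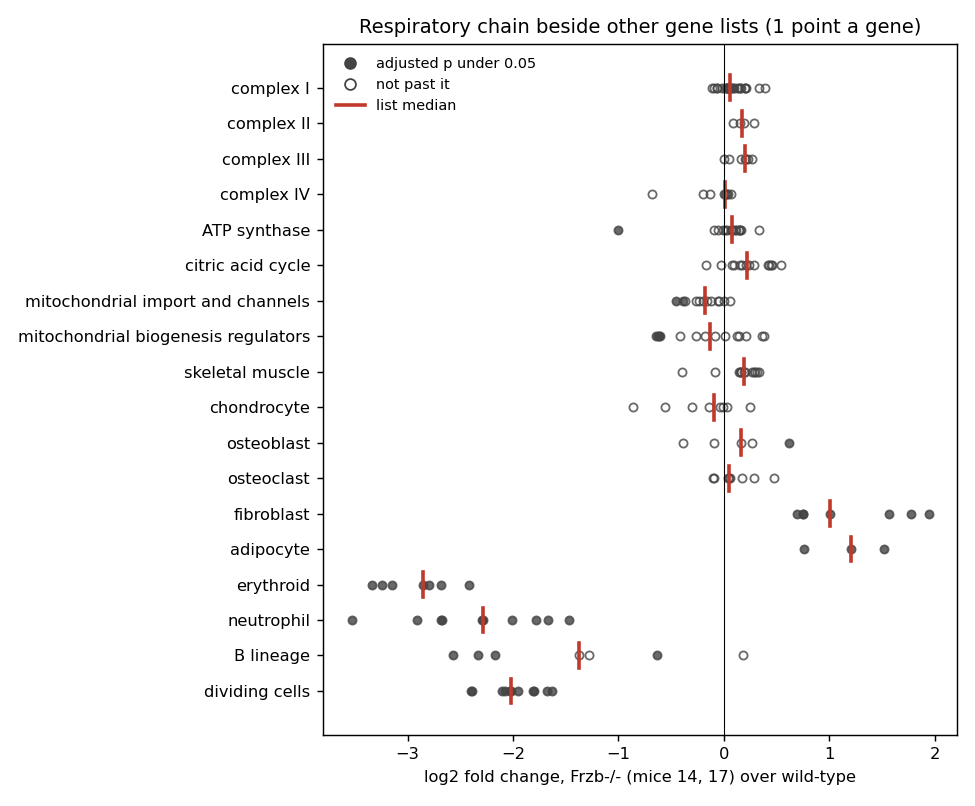
Log2 fold change between Frzb-/- mice (14 and 17) and wild-type mice on the horizontal axis, 1 point for each gene, with filled points for an adjusted p under 0.05 and a bar at the median of each list. The 4 complexes sit close to 0 with no filled point, while the erythroid, neutrophil and dividing cell lists lie below 0 and the fibroblast and adipocyte lists above it.

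The tissue around these genes did differ between the groups. Frzb itself was 7.02 and 6.42 in Frzb-/- mice and 6.93 in mouse 6, against 10.02, 10.79 and 10.16 in wild-type mice, so mouse 6 stood with the Frzb-/- mice for this gene. Over all probe sets, mouse 6 correlated with wild-type arrays at 0.983 to 0.991 and with Frzb-/- arrays at 0.940 to 0.957. A fit of mouse 6 against the wild-type mice called 0.0131% of all probe sets and 0 of 46 members, but with 1 array it missed even Frzb (log2 difference -3.4, adjusted p = 0.091), so this count does not place mouse 6. Markers of erythroid cells were lower in Frzb-/- mice for 7 of 7 genes, neutrophil markers for 10 of 10, B lineage markers for 4 of 7 and dividing cell markers for 11 of 11, with medians of -2.86, -2.29, -1.38 and -2.02. Fibroblast markers were higher for 7 of 7 genes (median 1.01) and adipocyte markers for 3 of 3 (median 1.21). Of the 3 adipocyte calls, 1 was left without mouse 14, mouse 17 or wild-type mouse 8-1. Of the 8 chondrocyte markers, all at or above the 97.3 percentile, 0 were called. Of the bone lists, 0 of 8 osteoclast markers were called (median 0.05) and 1 of 5 osteoblast markers was higher (median 0.16). The osteoblast call, Alpl, did not hold in every setting and was lost with the muscle covariate. Over all probe sets, 14.8% were lower and 11.7% higher in mice 14 and 17. With mouse 6 counted as Frzb-/-, 0.0098% of all probe sets passed. The part of these cell markers in the results on mitochondrial genes was not tested.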

How the data were processed

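The authors hybridised labelled RNA to Affymetrix mouse arrays and deposited log2 expression values for 30618 probe sets, made by RMA (background correction, quantile normalization and summary) with affy 1.20.0. They had removed control and absent probe sets. Genes came from the platform annotation: 25090 probe sets had 1 gene, 677 several and 4851 none. Precision is limited by the number of arrays. The table had 0 columns that belong to no sample.

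Mice 14 and 17 were compared with the 3 wild-type mice. The mean differences of these mice returned 36 of 36 of the study's listed changes that were compared, within 0.001, and every other choice of labelled mice returned 0. Fits used limma 3.58.1 (lmFit and eBayes, two-sided) in R 4.3.3, with Benjamini-Hochberg adjustment over all probe sets. Values in every array are given for the 4 lowest and 4 highest members of complex I, the 2 lowest and 2 highest of complexes III and IV, and all 4 of complex II. Of other lists, the 2 called genes of largest change and the 2 brightest could be named. Muscle isoforms, Ndufb4, the shared Ndufs6 probe set, Nrf1, Gabpb1 and Gabpa are shown besides. Members and lists were chosen with earlier results of these data known. Replicates are separate mice. The fit was tested on simulated data. Alternatives were all 3 labelled mice, leaving out each array, mouse 6 as a group of its own, median centring, cyclic loess, trended and robust moderation, bright probe sets, the mean over probe sets, a stricter threshold and, chosen after seeing the data, the muscle covariate. Tables and figures used Python 3.11.15, numpy 2.4.6, pandas 2.3.3 and matplotlib 3.10.9.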

Additional observations from a re-analysis of the deposited data

How the results depend on the processing

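The count of members lower in Frzb-/- mice ranged from 0 to 1 when 1 array was left out (Cox7c, without mouse 14) and was 1 with the muscle covariate, a setting chosen after seeing the data (Ndufa4, log2 fold change -0.54, adjusted p = 0.0477). It was 0 under the other alternatives, and the count of higher members was 0 under all of them. The fit on bright probe sets tested only 44 members, without Cox7c and Ndufb4. A stricter threshold could not raise a count of 0. The sign of the medians did depend on the mice. The median log2 fold change over all members was -0.08 with all 3 labelled mice and ranged from -0.05 (without mouse 17) to 0.24 (without mouse 14) when 1 array was left out, with -0.03 without mouse 9-1. The range was -0.08 to 0.24 for complex I, -0.05 to 0.39 for complex II, 0.02 to 0.39 for complex III and -0.10 to 0.05 for complex IV. With the muscle covariate the medians were -0.12, -0.09, -0.07 and -0.08. Centring each array on its median gave 0.11 over all members. No paired analysis was possible because the titles carry animal numbers and no replicate numbers shared between the groups.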
